A study of Homo sapiens with 24 samples.

Results

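Short noncoding RNAs made by RNA polymerase III (Pol III) were followed in U2OS cells, in a soluble and an insoluble fraction of the cytoplasm. The 8 entries were chosen by gene symbol from the 60308 entries of the exon count table: RN7SL1, RN7SL2, RN7SL3, RN7SL4P and RN7SL5P (copies of 7SL), RN7SK (7SK), RPPH1 (the RNA of RNase P) and RMRP (the RNA of RNase MRP). Counts were found for 5 of them, RN7SL1, RN7SL3, RN7SL4P, RN7SL5P and RMRP, and these 5 were among the 17666 genes that were tested because their mean reached 1 CPM (counts scaled to a fixed library total). The other 3 had 0 counts in all 24 libraries.

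7SL RNA is the scaffold of the signal recognition particle (SRP), which binds ribosomes that are making secreted or membrane proteins and brings them to the endoplasmic reticulum. RMRP and RPPH1 are the catalytic RNAs of related enzymes: RNase MRP, best known for cutting ribosomal RNA precursors in the nucleolus, and RNase P, which trims the leader of transfer RNA precursors. 7SK is a nuclear RNA that, with HEXIM1, LARP7 and MEPCE, holds the elongation factor P-TEFb in an inactive state.

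The U2OS line comes from a human osteosarcoma. The treatments were DMSO at 0.12% over 2 h (Ctrl), 500 µM sodium arsenite for 60 min (NaAsO2, an oxidative stress that induces stress granules, SGs), 6 µM RK-33, an inhibitor of the helicase DDX3, as a 1 h pre-treatment (RK-33), or RK-33 and then NaAsO2 (Combo). Nuclei were spun out of each of 12 lysates, and the pellet of a faster spin was the insoluble fraction, enriched for SGs and P-bodies, while the supernatant was the soluble fraction. Each of the 8 groups of treatment and fraction held 3 libraries of rRNA-depleted RNA. The study's methods say that the fractionation and sequencing experiment was done 3 times, but not whether from separate cultures, and the labels do not say either, so p-values measure only the spread between these samples. A single line and a single inhibitor were used, so an action of RK-33 on other targets cannot be told apart from inhibition of DDX3. The RK-33 stock was in DMSO, and whether cells given NaAsO2 alone received DMSO is not stated. A difference in DMSO therefore cannot be told apart from NaAsO2 in NaAsO2 versus Ctrl, or from RK-33 in Combo versus NaAsO2.

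The sequence of RMRP is shown because it is the one entry outside 7SL with counts. It was read from GRCh38 at the span of the count table, chr9:35657751-35658018 on the minus strand, 5′ to 3′. Each member is a noncoding gene whose whole span is annotated as exon.
RMRP: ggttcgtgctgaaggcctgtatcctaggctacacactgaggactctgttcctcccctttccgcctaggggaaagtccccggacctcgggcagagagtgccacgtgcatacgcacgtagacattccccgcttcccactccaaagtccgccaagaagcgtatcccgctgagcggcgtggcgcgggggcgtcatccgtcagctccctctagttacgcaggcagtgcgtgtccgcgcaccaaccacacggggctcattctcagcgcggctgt

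RN7SL2 and RN7SL3 were 98.3% and 97.7% identical to RN7SL1 over all columns of the alignment, gaps included. RN7SL4P and RN7SL5P, annotated pseudogenes, were 85.7% and 85.5% identical to it by the same measure, with 20 and 30 gap columns. The authors counted only fragments that aligned at a single place in the genome, so the few bases by which the copies differ decide which fragments were counted. Of the windows of 150 bases (1 read) along each entry, 51 of 150 in RN7SL1, 150 of 150 in RN7SL3, 103 of 146 in RN7SL4P, 112 of 172 in RN7SL5P and 119 of 119 in RMRP occurred at a single place in the genome. Levels of the 7SL copies are therefore best read as their sum, and how fragments were split among them is uncertain. The sum is itself a partial count of 7SL, since fragments that aligned at more than 1 place were left out of it.

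RN7SL2, RN7SK and RPPH1 each lie wholly inside a second entry on the same strand, and fragments that fall on 2 entries were left unassigned by the authors. RN7SL2 lies inside ENSG00000282885, which had 212 counts over all libraries. RN7SK, at chr6:52995621-52995948 on the plus strand, lies inside an entry named 7SK with 89 counts, and RPPH1, at chr14:20343075-20343407 on the minus strand, inside ENSG00000259001 with 19 counts. Of the 2126 entries in the table whose every exon base is shared with another entry, 94.9% had 0 counts, against 17.7% of the 58182 other entries. The zeros of RN7SL2, RN7SK and RPPH1 therefore set no limit on their levels, and 7SK and RNase P RNA could not be measured from this table.

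A library held between 8627294 and 15376554 exon counts. Over the 24 libraries the table gave RN7SL1 15041393 counts, RN7SL3 387992, RN7SL4P 6274, RN7SL5P 3332 and RMRP 1181572. The Wilson 95% interval of the share of a library's exon counts was at most 0.800% of the value to either side for the 7SL sum and 1.43% for RMRP, and reached 39.9% for RN7SL4P and 50.4% for RN7SL5P, all for counting error only. Per kilobase of exon, RN7SL1 had the highest mean CPM of the tested genes in both fractions, RMRP the second highest and RN7SL3 the third. Markers of the cell line were present: the osteoblast and mesenchymal genes RUNX2, COL1A1, SPARC, VIM and ALPL passed the filter, while COL1A2 and BGLAP of the same list did not. Of 5 markers of other cell types, EPCAM (epithelial cells), PECAM1 (endothelial cells) and PTPRC (white blood cells) passed at means of 3.56, 1.90 and 1.05 CPM, ALB (liver) and HBB (red cells) did not, and their sum stayed at or under 11.97 CPM in each library. The nuclear RNAs MALAT1, NEAT1, KCNQ1OT1 and MEG3 summed to 5727 to 17001 CPM in soluble and 1922 to 9239 CPM in insoluble libraries, so nuclear RNA was present in both, and its part in the values below was not tested.

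Among the members, 7SL differed most between the fractions. The 5 copies summed, to which RN7SL2 gave 0 counts, made up between 7.69% and 15.9% of exon counts in the 12 soluble libraries. In 11 of the 12 insoluble libraries they made up between 0.439% and 1.27%. The exception was NaAsO2 insoluble replicate 3 at 5.97%, still under the lowest soluble library. In Ctrl, replicates 1, 2 and 3 held 8.06%, 9.51% and 7.69% of exon counts as 7SL in the soluble fraction, and 0.890%, 0.818% and 0.665% in the insoluble fraction. The fractions did not overlap in Ctrl, and the same held in each other treatment. How common such separation of 3 against 3 libraries is among all tested genes is not given, here and below. By edgeR, 24.4% of all tested genes were called higher and 26.6% lower in the insoluble fraction of Ctrl. After NaAsO2 the soluble values were 10.7%, 13.4% and 11.9%, and the insoluble values 0.439%, 0.820% and 5.97%. After RK-33 they were 8.65%, 9.37% and 15.9% in the soluble fraction and 0.709%, 0.622% and 0.822% in the insoluble fraction, with replicate 3 standing above the other soluble libraries. In Combo, the soluble libraries held 9.83%, 8.55% and 8.80%, and the insoluble libraries 0.768%, 0.536% and 1.27%. As means, soluble and insoluble shares were 8.42% ± 0.964 and 0.791% ± 0.115 in Ctrl, 12.02% ± 1.34 and 2.41% ± 3.09 after NaAsO2, 11.3% ± 3.98 and 0.717% ± 0.1002 after RK-33, and 9.06% ± 0.681 and 0.858% ± 0.376 in Combo (SD, n = 3 each). Without replicate 3, the NaAsO2 insoluble mean was 0.630% ± 0.269 (SD, n = 2). A share is relative to the other RNAs of its library, and in bulk samples fewer contributing cells and less RNA per cell cannot be told apart.

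**Figure D1:**
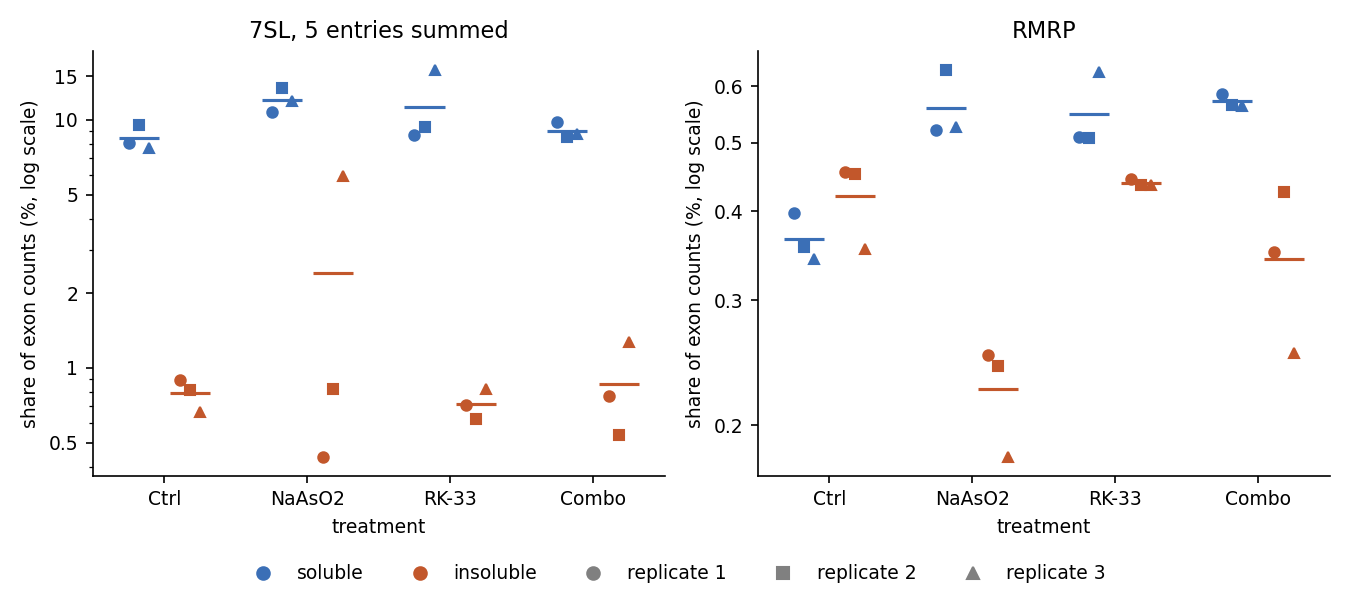
Share of exon counts (percent, log scale) of the 5 summed 7SL entries, left, and of RMRP, right, in each of the 24 libraries by treatment; symbols give the replicate and short lines the mean of 3 libraries. For 7SL every soluble library lies above every insoluble one, with NaAsO2 insoluble replicate 3 at 5.97% nearest to them, whereas the RMRP fractions overlap in Ctrl only.

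Within lysates, 7SL was lower in the insoluble fraction in 12 of 12. The share fell short of the soluble share of the same lysate by 9.06, 11.6 and 11.6 times in Ctrl, 24.5, 16.4 and 1.99 times after NaAsO2, 12.2, 15.1 and 19.3 times after RK-33, and 12.8, 15.95 and 6.93 times in Combo (replicates 1, 2 and 3). Apart from the NaAsO2 lysate of replicate 3, each lysate thus differed by 6.93 times or more. The mean log2 ratio of insoluble over soluble shares was -3.51 (SD 0.928, n = 12), an 11.4-fold lower share, with p = 0.000488 by an exact two-sided sign-flip permutation test, the smallest p that 12 lysates can give, and 0.000977 after Benjamini-Hochberg adjustment over the 2 RNAs tested, 7SL and RMRP. Without the NaAsO2 lysate of replicate 3, it was -3.74 (SD 0.504, n = 11), 13.4-fold lower, with an exact p of 0.000977.

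**Figure D2:**
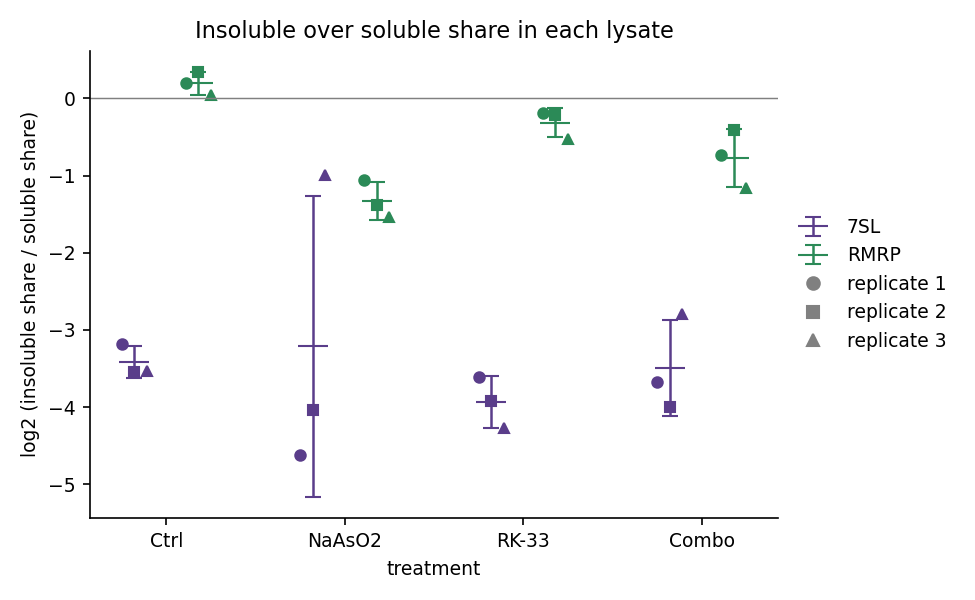
Log2 ratio of the insoluble over the soluble share of exon counts in each of the 12 lysates, for the 7SL sum and for RMRP, by treatment. All 12 values of 7SL lie below 0, with a mean of -3.51, and those of RMRP lie above 0 in Ctrl and below 0 in the other 9 lysates.

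The same contrast was tested across all genes with edgeR's quasi-likelihood test and Benjamini-Hochberg adjustment. Of the 5 members tested, 4 were lower in the insoluble than in the soluble fraction in Ctrl, where 26.6% of all tested genes were lower, and 5 of 5 were lower after NaAsO2 (29.7% of all genes), RK-33 (30.4%) and Combo (28%). The member not called in Ctrl was RMRP. The 4 called there are copies of 7SL that share sequence, so counts of members, here and below, are not counts of independent RNAs. The 7SL sum had log2 fold changes of -3.34 (SE 0.64, adjusted p = 0.000185) in Ctrl, -2.17 (SE 0.61, adjusted p = 0.00438) after NaAsO2, -4.06 (SE 0.67, adjusted p = 2.06e-05) after RK-33 and -3.36 (SE 0.64, adjusted p = 0.000145) in Combo, all by edgeR's quasi-likelihood test. The median log2 fold change of all tested genes was between -0.03 and 0.03 in these contrasts. Without NaAsO2 insoluble replicate 3, the NaAsO2 value moved from a 4.51-fold to a 19.9-fold lower level (log2 -4.31, SE 0.37, adjusted p = 1.8e-11, edgeR), while the Ctrl, RK-33 and Combo values stayed at -3.38, -4.10 and -3.40. That fit called 34.2%, 32.4%, 36.5% and 34.2% of all genes lower in Ctrl, NaAsO2, RK-33 and Combo, and the same members. With the lysate as a replicate block, the NaAsO2 value was -3.35 (edgeR adjusted p = 0.000265). When the NaAsO2 libraries alone were fitted, it was no longer called (log2 -2.13, edgeR adjusted p = 0.108).

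Each of the 7SL copies with counts was lower in the insoluble fraction, to differing degrees. RN7SL1, at 96.8% to 97.7% of the 7SL counts, set the sum. RN7SL3, unique in windows of 150 bases but in only 155 of 250 windows of 50 bases, was counted at 2.27% to 2.71% of RN7SL1 in soluble and 2.47% to 3.24% in insoluble libraries. The pseudogene RN7SL4P had 265 to 657 counts in a soluble and 25 to 248 in an insoluble library, or 0.0326% to 0.0555% and 0.0333% to 0.0707% of RN7SL1. RN7SL5P had 134 to 391 and 16 to 129 counts, or 0.0177% to 0.0249% and 0.0206% to 0.0465% of RN7SL1. These ranges overlapped between the fractions for all 3 minor copies. Across the 12 lysates, the mean log2 ratio of insoluble over soluble shares was -3.52 (SD 0.927) for RN7SL1, -3.37 (SD 0.955) for RN7SL3, -3.18 (SD 0.868) for RN7SL4P and -3.16 (SD 0.791) for RN7SL5P, each below 0 in 12 of 12. Within lysates, the value of RN7SL3 lay above that of RN7SL1 in 12 of 12, by 0.14 on average (SD 0.08), that of RN7SL4P in 10 of 12, by 0.34 (SD 0.38), and that of RN7SL5P in 11 of 12, by 0.36 (SD 0.33). Relative to RN7SL1, the minor copies were thus counted somewhat more in insoluble libraries, a pattern seen after the values were known and given with no test. How far RN7SL1 fragments with sequencing errors add to the counts of the rarer copies was not tested.

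**Figure D3:**
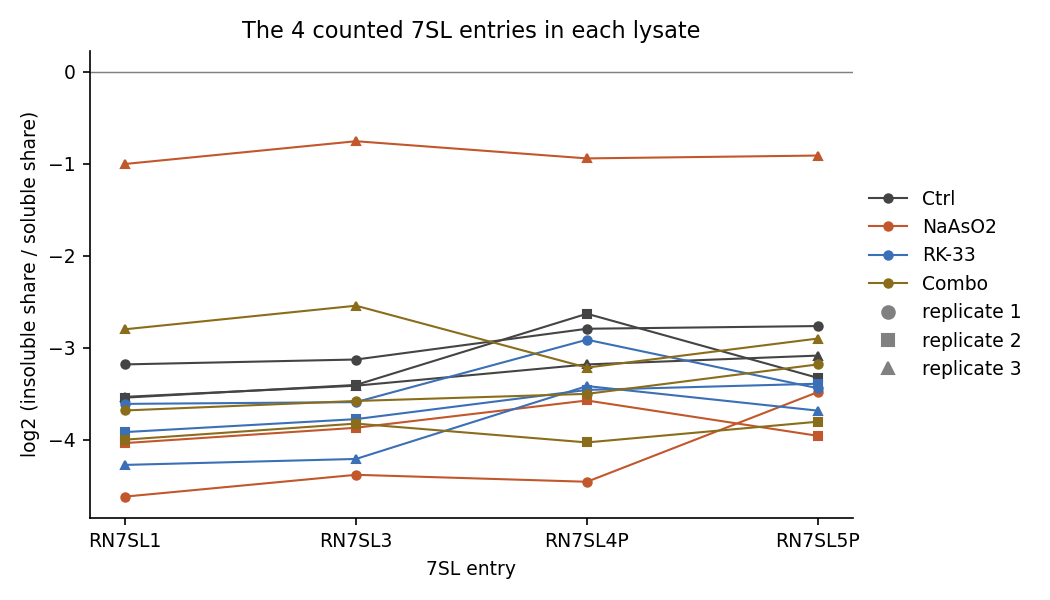
Log2 ratio of the insoluble over the soluble share of exon counts of RN7SL1, RN7SL3, RN7SL4P and RN7SL5P in the 12 lysates. Within a lysate the copies span 0.226 to 1.14 on the log2 scale, with means of -3.52, -3.37, -3.18 and -3.16, and the NaAsO2 lysate of replicate 3 stands apart for all of them, between -1.001 and -0.75.

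RMRP did not show the large difference between fractions that 7SL did. In Ctrl it made up 0.398%, 0.357% and 0.343% of exon counts in the soluble fraction and 0.455%, 0.452% and 0.354% in the insoluble fraction (replicates 1, 2 and 3). Those ranges overlap, since insoluble replicate 3 lies between soluble libraries. After NaAsO2 the soluble shares were 0.521%, 0.632% and 0.525%, and the insoluble shares 0.251%, 0.243% and 0.181%, so that every soluble value was above every insoluble one. After RK-33 the soluble shares were 0.509%, 0.507% and 0.628%, and the insoluble shares 0.444%, 0.436% and 0.435%. In Combo the soluble shares were 0.586%, 0.565% and 0.563%, and the insoluble shares 0.351%, 0.426% and 0.252%, again with no overlap. The soluble and insoluble means were 0.366% ± 0.0285 and 0.420% ± 0.0571 in Ctrl, 0.559% ± 0.0632 and 0.225% ± 0.0383 after NaAsO2, 0.548% ± 0.0694 and 0.439% ± 0.00488 after RK-33, and 0.571% ± 0.0125 and 0.343% ± 0.0869 in Combo (SD, n = 3 each). RNase MRP RNA thus had its highest soluble shares in the treated cells and its lowest insoluble share after NaAsO2.

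Within lysates, the log2 ratio of insoluble over soluble RMRP shares was 0.19, 0.34 and 0.05 in Ctrl, -1.05, -1.38 and -1.54 after NaAsO2, -0.20, -0.22 and -0.53 after RK-33, and -0.74, -0.41 and -1.16 in Combo. All 3 Ctrl lysates lay above 0 and all 9 treated lysates below it. The Ctrl sign depends on the pairing by replicate number, since soluble replicate 1 (0.398%) held more than insoluble replicate 3 (0.354%). It also depends on 7SL being part of the exon counts. As a share of exon counts without 7SL, RMRP in Ctrl replicate 3 was 0.372% in the soluble and 0.357% in the insoluble library. The treatment means were 0.19 ± 0.15, -1.33 ± 0.25, -0.31 ± 0.19 and -0.77 ± 0.38 (SD, n = 3 each), and the NaAsO2 mean is a 2.51-fold lower insoluble share. Over all 12 lysates the mean was -0.55 (SD 0.62; 9 of 12 below 0; p = 0.0117, also 0.0117 after adjustment over the 2 RNAs, exact two-sided sign-flip permutation test). By edgeR's quasi-likelihood test, the log2 fold change of RMRP was 0.28 (SE 0.15, adjusted p = 0.132) in Ctrl, -1.34 (SE 0.15, adjusted p = 1.4e-07) after NaAsO2, -0.39 (SE 0.15, adjusted p = 0.0337) after RK-33 and -0.72 (SE 0.15, adjusted p = 0.000428) in Combo. The RK-33 call was lost without RK-33 soluble replicate 3 (log2 -0.20, adjusted p = 0.279), without insoluble replicate 1, 2 or 3 (0.0695, 0.0732 and 0.0544) and with library size alone as the scaling (0.0878), all in edgeR.

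Set against each other in the same library, 7SL and RMRP gave 15.1 to 26.7 counts of 7SL for 1 of RMRP in soluble libraries and 1.26 to 5.04 in insoluble ones, except 33.0 in NaAsO2 insoluble replicate 3. This ratio, chosen after the values were seen, does not depend on the other RNAs of a library. It was lower in the insoluble fraction in 11 of 12 lysates, by 7.78-fold on average (log2 -2.96, SD 1.27, p = 0.000977 by an exact two-sided sign-flip permutation test). The lysate that went the other way was that of NaAsO2 replicate 3.

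NaAsO2 insoluble replicate 3 also stood apart in other RNAs, and the values are given here because 7SL results rest on it. SNORD3A, the U3 RNA of ribosomal RNA processing, had 1808 CPM, against 90.7 to 413 CPM in the other insoluble libraries, while the other listed small nuclear RNAs made by RNA polymerase II summed to 120.0 CPM, against 17.6 to 53.3 CPM. COL1A1, a collagen chain, had 6410 CPM, against 970.2 to 2337 CPM, while the other osteoblast and mesenchymal markers summed to 1227 CPM, against 1261 to 2705 CPM. Both genes were singled out after their values were seen. The mRNAs of SRP proteins and the SRP receptor summed to 255 CPM, and the nuclear long noncoding RNAs to 1922 CPM, in both cases the lowest of the insoluble libraries. The mRNAs of RNase P and MRP proteins summed to 162 CPM, within the range of the others. The log2 difference of NaAsO2 insoluble replicate 3 from the mean soluble library of its treatment was set against that of the other 2 NaAsO2 insoluble libraries. Over the 17661 other tested genes the slope was 0.891. Insoluble libraries of the other treatments had slopes of 0.912 to 1.06, all above it. NaAsO2 insoluble replicates 1 and 2 had 0.793 and 0.857, but each was set against a pair that includes NaAsO2 insoluble replicate 3. Its counts also differed from those of NaAsO2 insoluble replicates 1 and 2 by a chi-square per degree of freedom of 142 and 130. Between those 2 libraries it was 5.78. Its deviations from the group mean correlated with those of Combo insoluble replicate 3 (r = 0.665) and RK-33 soluble replicate 3 (r = 0.456). With the other libraries of replicate 3, r was -0.116 to 0.0535. Combo insoluble replicate 3 and RK-33 soluble replicate 3 also held the most 7SL of their groups. Their counts stood apart too. The chi-square per degree of freedom was 25.5 and 32.1 for Combo insoluble replicate 3 against replicates 1 and 2, which differed by 3.19. For RK-33 soluble replicate 3 it was 32.4 and 23.1, and 4.13 between replicates 1 and 2. The cause of the high 7SL share of NaAsO2 insoluble replicate 3 was not tested.

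No effect of a treatment on 7SL in the soluble fraction passed the threshold. In the soluble fraction, the NaAsO2 libraries (10.7% to 13.4%) lay above the Ctrl libraries (7.69% to 9.51%), at 0.69 on the log2 scale (SE 0.59, adjusted p = 0.465) by edgeR's quasi-likelihood test. RK-33 versus Ctrl gave 0.52 (SE 0.59, adjusted p = 0.699), Combo versus NaAsO2 -0.52 (SE 0.59, adjusted p = 0.643) and Combo versus RK-33 -0.35 (SE 0.59, adjusted p = 0.847) in the same test. These fits share 1 estimate of spread, into which NaAsO2 insoluble replicate 3 enters. Without it, the soluble NaAsO2 versus Ctrl value of the 7SL sum was 0.68 (SE 0.27, edgeR adjusted p = 0.0583), and RN7SL3, RN7SL4P and RN7SL5P passed the threshold at 0.75, 0.79 and 0.76 (edgeR adjusted p = 0.0248, 0.0021 and 0.00687), which with RMRP makes 4 of 5 members, in a fit that called 15.4% of all tested genes higher (6.31% with all libraries). In that fit RN7SL4P was also lower in Combo than in NaAsO2 in the soluble fraction (-0.55, edgeR adjusted p = 0.0358), where 6.75% of all genes were lower. With all libraries, 0 of 5 members passed in Combo versus NaAsO2 and in Combo versus RK-33 in the soluble fraction, where 6.46% and 3.65% of all genes did. A p that misses the threshold at this spread does not show that 7SL stayed the same.

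In the insoluble fraction, 3 of 5 members (RN7SL1, RN7SL3 and RN7SL5P) were higher and 1 (RMRP) lower after NaAsO2 than in Ctrl, where 21.2% of all tested genes were higher and 21.8% lower. The higher calls rest on replicate 3. The 7SL sum was higher by 1.86 on the log2 scale (SE 0.61, edgeR adjusted p = 0.0172), and without that library it was -0.25 (SE 0.30, edgeR adjusted p = 0.523). It was also lost without Ctrl insoluble replicate 3 (1.78, edgeR adjusted p = 0.0539), and when the insoluble NaAsO2 and Ctrl libraries alone were fitted (1.89, edgeR adjusted p = 0.188). RN7SL1 at 1.85, RN7SL3 at 2.09 and RN7SL5P at 1.52 turned to -0.26, -0.13 and 0.00 without it, and RN7SL4P, at 1.29 and not called (edgeR adjusted p = 0.0638), turned to -0.34. RN7SL5P was lost as well without Ctrl insoluble replicate 1, 2 or 3 (edgeR adjusted p = 0.063, 0.116 and 0.089), and RN7SL1 without Ctrl insoluble replicate 3 (0.0547). For RK-33 versus Ctrl in the insoluble fraction the 7SL sum gave -0.20 (SE 0.59, edgeR adjusted p = 0.879), and 0 of 5 members passed, against 13.9% of all genes. Without replicate 3 of NaAsO2, the NaAsO2 comparison called 0 of 5 members higher and 1 lower (RMRP), beside 22.3% and 20.3% of all genes.

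Combo was compared with NaAsO2 to see what RK-33 given ahead of the stress changed. In the insoluble fraction 1 of 5 members was higher (RMRP) and 1 lower (RN7SL4P), beside 6.88% of all tested genes higher and 6.9% lower. RN7SL4P was lower by edgeR's quasi-likelihood test (log2 -1.78, SE 0.55, adjusted p = 0.0363), and this turned to -0.13 (adjusted p = 0.832) without NaAsO2 insoluble replicate 3. It was lost as well without Combo insoluble replicate 1 or 2 (edgeR adjusted p = 0.105 and 0.149). The 7SL sum gave -1.71 (SE 0.60, edgeR adjusted p = 0.0607) with and 0.43 (SE 0.30, edgeR adjusted p = 0.389) without NaAsO2 insoluble replicate 3. In the fit without it 0 of 5 members passed, beside 12.7% of all genes. Combo and RK-33 differed in the insoluble 7SL sum by 0.35 (SE 0.59, edgeR adjusted p = 0.801), where 0 of 5 members and 7.12% of all genes passed.

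Exact two-sided permutation tests on shares, with NaAsO2 given or not as labels permuted within the RK-33 levels and the reverse, passed the threshold for none of 12 comparisons after Benjamini-Hochberg adjustment over them. The smallest p this design can give is 0.005. For 7SL, the NaAsO2 effect was a mean log2 difference of 0.12 in the soluble share (p = 0.555), 0.45 in the insoluble share (p = 0.61) and 0.32 in the ratio of fractions (p = 0.68), and the RK-33 effect was -0.01, -0.41 and -0.40 (p = 0.955, 0.63 and 0.575), all exact. Each effect is a mean over both levels of the other compound. For soluble 7SL those levels went opposite ways. The mean share was 8.42% in Ctrl and 12.02% after NaAsO2, but 11.3% after RK-33 and 9.06% in Combo. The soluble values near 0 therefore do not show that either compound left 7SL unchanged at each level of the other. Without NaAsO2 insoluble replicate 3, the insoluble NaAsO2 effect turned to -0.11 and the insoluble RK-33 effect to 0.14. The readings for RMRP are given with its other values.

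RMRP moved with NaAsO2 in opposite directions in the 2 fractions. In the soluble fraction it rose after NaAsO2 by 0.79 on the log2 scale (SE 0.15, 1.73-fold, adjusted p = 0.00155, edgeR's quasi-likelihood test), the only 1 of 5 members called there beside 6.31% of all genes higher, and each NaAsO2 library lay above each Ctrl library. It also rose after RK-33 (log2 0.67, SE 0.15, edgeR adjusted p = 0.0103), as 1 of 5 members, with 2.09% of all genes higher. That call was lost without Ctrl soluble replicate 3 (0.61, edgeR adjusted p = 0.061) or RK-33 soluble replicate 3 (0.48, edgeR adjusted p = 0.108). In the insoluble fraction after NaAsO2 RMRP fell by 0.82 on the log2 scale (SE 0.15, 1.77-fold, edgeR adjusted p = 0.000256), with each NaAsO2 library under each Ctrl library, and the value without NaAsO2 insoluble replicate 3 was -0.71 (edgeR adjusted p = 0.000778). RK-33 versus Ctrl in the insoluble fraction gave 0.01 (SE 0.15, edgeR adjusted p = 0.99).

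Against NaAsO2 alone, Combo had higher insoluble RMRP by 0.54 on the log2 scale (SE 0.15, 1.45-fold, edgeR adjusted p = 0.0236), with each Combo library above each NaAsO2 library. The call was lost without NaAsO2 insoluble replicate 3 (0.44, edgeR adjusted p = 0.0672), Combo insoluble replicate 1 (0.55, 0.0708) or 2 (0.33, 0.221), and when the NaAsO2 and Combo insoluble libraries alone were fitted (0.54, 0.448). In the soluble fraction Combo and NaAsO2 differed by -0.08 (SE 0.15, edgeR adjusted p = 0.796), and Combo and RK-33 by 0.05 (soluble) and -0.29 (insoluble) (edgeR adjusted p = 0.93 and 0.296). In the exact two-sided permutation tests on RMRP shares, the NaAsO2 effect was 0.34 in the soluble share (p = 0.03, adjusted 0.12), -0.65 in the insoluble share (p = 0.005, the smallest possible, adjusted 0.06) and -0.99 in the ratio of fractions (p = 0.01, adjusted 0.06). The RK-33 effect was 0.31 in the soluble share (p = 0.04, adjusted 0.12), 0.33 in the insoluble share (p = 0.12, adjusted 0.288) and 0.02 in the ratio (p = 0.92, adjusted 0.955) in the same exact test.

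**Figure D4:**
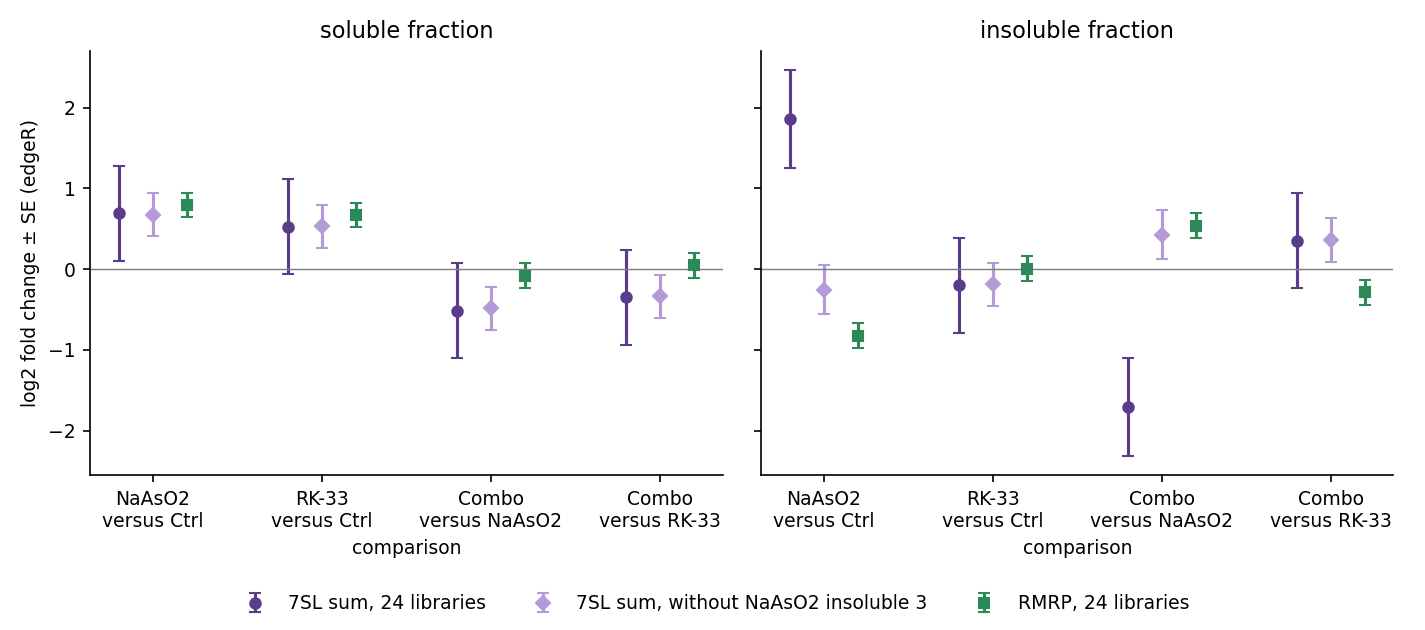
Log2 fold changes (edgeR, ± SE) of the 7SL sum and of RMRP between treatments, within each fraction. RMRP rises after NaAsO2 in the soluble fraction (0.79) and falls in the insoluble fraction (-0.82), and the insoluble 7SL value of NaAsO2 versus Ctrl moves from 1.86 to -0.25 when NaAsO2 insoluble replicate 3 is left out.

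Whether a treatment changed the difference in level between the fractions was tested as the difference of its fraction effect from that of Ctrl. Levels are relative to the other RNAs of each library. RNA moving between fractions and a change in those other RNAs therefore cannot be told apart. RMRP had a lower fraction effect after NaAsO2 than in Ctrl, with a log2 difference of -1.62 (SE 0.22, adjusted p = 1.95e-05, edgeR's quasi-likelihood test), the only 1 of 5 members called, with 11.4% of all genes lower. In Combo the difference was -0.998 (SE 0.22, edgeR adjusted p = 0.00441), again 1 of 5 members, with 4.27% of all genes lower. As a share of all exon counts, the soluble library of each lysate held less RMRP than the insoluble library in Ctrl and more in NaAsO2 and Combo. With 7SL left out of the exon counts, Ctrl replicate 3 went the other way. The RK-33 value was -0.66 (SE 0.22, edgeR adjusted p = 0.119) and Combo minus NaAsO2 was 0.62 (SE 0.22, edgeR adjusted p = 0.218), so neither difference passed the threshold, as was the case for 0 of 5 members in both, beside 2.18% and 0.357% of all genes. Without NaAsO2 insoluble replicate 3 the RK-33 value did pass (-0.66, edgeR adjusted p = 0.0333), with 6.1% of all genes lower. For the 7SL sum the difference was 1.17 after NaAsO2 (SE 0.83, edgeR adjusted p = 0.331), -0.72 after RK-33 (0.798), -0.02 in Combo (0.993) and -1.19 for Combo minus NaAsO2 (0.543). Without NaAsO2 insoluble replicate 3, the NaAsO2 value was -0.93 (SE 0.41, edgeR adjusted p = 0.0879) for the sum, and RN7SL4P passed the threshold at -1.13 (edgeR adjusted p = 0.0216), with 13% of all genes lower.

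The mRNAs of the proteins that bind these RNAs were read from the same fits, as named lists. Those of the SRP proteins and the SRP receptor were mostly lower in the insoluble fraction: 5 of 8 in Ctrl (1 was higher), 8 of 8 after NaAsO2, 7 of 8 after RK-33 and 7 of 8 in Combo, with median log2 fold changes of -0.45, -0.98, -0.51 and -0.71. Of all tested genes, 26.6%, 29.7%, 30.4% and 28% were lower in the same contrasts. SRP9, which with SRP14 covers the Alu end of 7SL, had log2 fold changes of -1.55, -2.25, -1.58 and -1.75 in Ctrl, NaAsO2, RK-33 and Combo. SRP72, which forms a dimer with SRP68 on the other end, had -0.72, -1.85, -0.87 and -1.07, and each of these 8 values was called. SRP54, the subunit that binds signal peptides, was the 1 higher in Ctrl (0.36) and was lower after NaAsO2 (-1.02). The fraction effect of 6 of the 8 was lower after NaAsO2 than in Ctrl, with a median over the list of -0.74 against -0.02 over all tested genes, of which 11.4% were lower. With NaAsO2 insoluble replicate 3 left out, the number lower was 5, 7, 8 and 8 of 8 in Ctrl, NaAsO2, RK-33 and Combo (34.2%, 32.4%, 36.5% and 34.2% of all genes), and the fraction effect of 5 was lower after NaAsO2 (13% of all genes), with a median of -0.57. All calls are by edgeR's quasi-likelihood test at an adjusted p under 0.05.

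For the proteins of RNase P and RNase MRP, 7 of 9 tested mRNAs were lower in the insoluble fraction in Ctrl, NaAsO2 and Combo and 6 of 9 after RK-33, beside 26.6%, 29.7%, 28% and 30.4% of all genes. POP1, the largest of these proteins, was the 1 higher in each treatment, with log2 fold changes of 1.67, 1.10, 1.03 and 1.17 in Ctrl, NaAsO2, RK-33 and Combo, where 24.4%, 27.9%, 29.2% and 24.1% of all genes were higher. POP4 had -1.09, -1.19, -0.98 and -0.73, and POP7 had -1.15, -1.08, -1.89 and -1.31. In the insoluble fraction after NaAsO2, where RMRP fell, RPP30 (log2 -0.90, edgeR adjusted p = 0.000182) and RPP40 (-1.34, edgeR adjusted p = 0.00239) fell and RPP14 rose (0.70, edgeR adjusted p = 0.00354), and the other 6 did not pass the threshold. With NaAsO2 insoluble replicate 3 left out, 8, 7, 8 and 7 of the 9 were lower in the insoluble fraction in Ctrl, NaAsO2, RK-33 and Combo, beside 34.2%, 32.4%, 36.5% and 34.2% of all genes. For the partners of 7SK, 0 of 6 tested mRNAs were higher and 1 lower in Ctrl, 2 and 1 after NaAsO2, 1 and 3 after RK-33, and 2 and 2 in Combo, where 24.1% to 29.2% of all genes were higher and 26.6% to 30.4% lower. HEXIM1, the inhibitor of P-TEFb, had -0.41, -0.15, -0.75 and -1.27, all called but the NaAsO2 value, and CCNT1, its cyclin, had 0.21, 0.84, 0.70 and 1.14, all called but the Ctrl value.

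**Figure D5:**
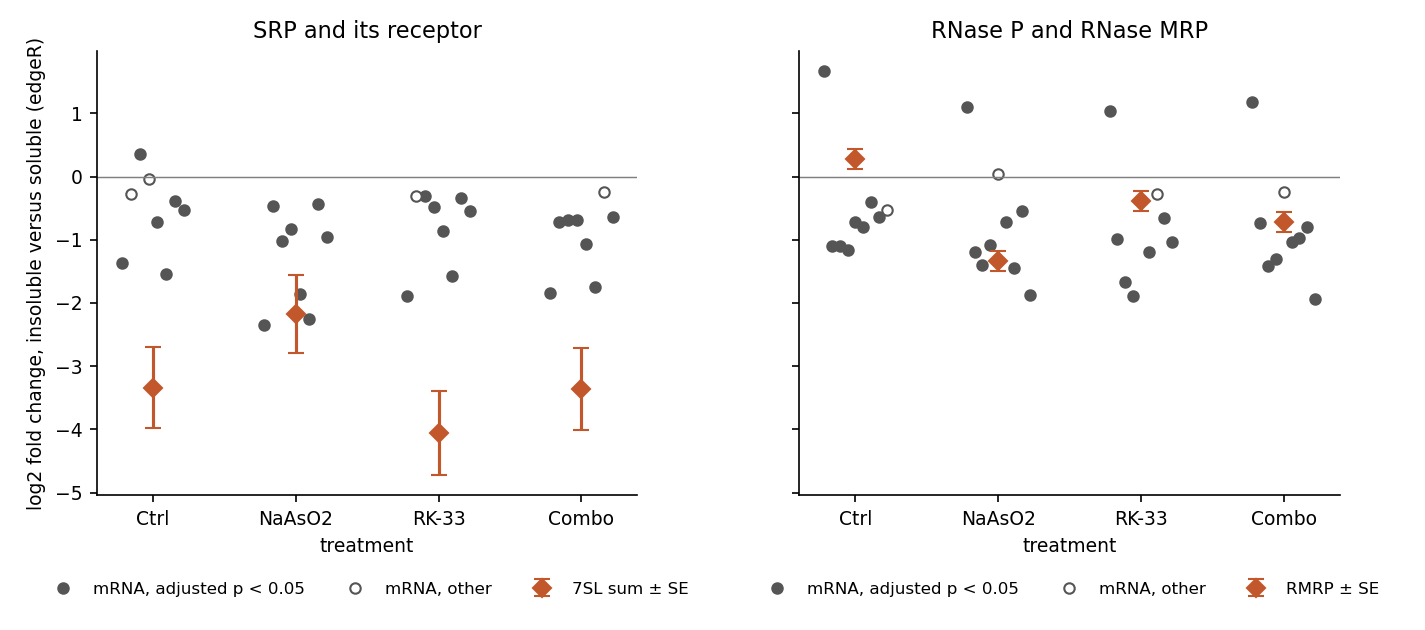
Log2 fold changes of insoluble versus soluble (edgeR) for the mRNAs of SRP proteins and the SRP receptor beside the 7SL sum, left, and of RNase P and MRP proteins beside RMRP, right; filled points passed an adjusted p of 0.05, and bars on the RNAs are ± SE. The 7SL sum lies below all 8 of its partners' mRNAs in Ctrl, RK-33 and Combo, and POP1 is the mRNA above 0 in each treatment on the right.

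Of 31 tested genes of the Pol III machinery, 8 were higher and 13 lower in insoluble than in soluble libraries of Ctrl, 9 and 14 after NaAsO2, 9 and 17 after RK-33, and 9 and 15 in Combo. The higher share was near that of all genes (24.4%, 27.9%, 29.2% and 24.1%), and all genes were lower in 26.6%, 29.7%, 30.4% and 28%. BDP1, a subunit of the initiation factor TFIIIB, had log2 fold changes of 1.22, 1.10, 1.37 and 1.13 in Ctrl, NaAsO2, RK-33 and Combo, and GTF3C1, the largest subunit of TFIIIC, had 2.30, 1.99, 1.71 and 1.63. GTF3C4, of the same complex, had 0.73, 1.503, 1.19 and 1.26, and these 12 values were called. MAF1, the repressor of Pol III, was lower in Ctrl (-0.86) and after RK-33 (-1.09), with -0.03 and -0.62 after NaAsO2 and in Combo, not called. Between treatments in the soluble fraction, 1 of 31 was higher after NaAsO2 and 2 of 31 after RK-33 than in Ctrl, and none was lower, beside 6.31% and 2.09% of all genes higher and 7% and 3.24% lower. Without NaAsO2 insoluble replicate 3, 11 of 31 were higher after NaAsO2 and 6 of 31 after RK-33, in fits that called 15.4% and 8% of all genes higher.

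Few other Pol III RNAs were in reach. Of 32 listed, among them vault, Y, 5S and U6 RNAs, 31 were in the table, 16 had 0 counts and only BCYRN1 passed the filter, at a mean of 15.7 CPM. BCYRN1, an RNA related to Alu repeats as the ends of 7SL are, was lower in the insoluble fraction, with log2 fold changes of -2.71 in Ctrl, -2.30 after NaAsO2, -3.64 after RK-33 and -2.42 in Combo (edgeR adjusted p = 6.82e-06, 1.16e-05, 1.03e-07 and 8.61e-06). Its fragments can resemble other Alu copies, so its count is uncertain. The listed RNAs summed to 14.2 CPM in NaAsO2 insoluble replicate 3 and to 3.88 to 7.44 CPM in the other insoluble libraries. The 675 other 7SL pseudogenes of the table held counts equal to 0.112% of those of 7SL, with a median summed level of 51.1 CPM in soluble and 80.6 CPM in insoluble libraries, and ranges that overlapped, 32.9 to 98.4 CPM and 33.1 to 104.6 CPM. The 293 RN7SK pseudogenes had medians of 66.0 and 38.7 CPM and ranges of 51.2 to 75.9 and 19.8 to 51.5 CPM.

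The genes whose log2(CPM + 1) followed the 7SL sum most closely over the 24 libraries, among 10254 with a mean of at least 10 CPM, were GPX1 (Pearson r 0.990), RPSA (0.990) and YBX3 (0.989). GPX1 is a glutathione peroxidase, RPSA a protein of the small ribosomal subunit and YBX3 an RNA-binding protein. Leaving out NaAsO2 insoluble replicate 3, the first 3 were RPLP1 (0.995), RPS2 (0.993) and GPX1 (0.992). For RMRP they were UCKL1 (0.900), STIP1 (0.889) and EWSR1 (0.873). All points share the difference between fractions and their library's composition, so these values describe a pattern and no more.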

How the data were processed

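Per the labels and the file headers, the authors aligned paired reads of 24 rRNA-depleted U2OS libraries to GRCh38.p13 with STAR 2.7.2b and SAMtools 1.2. The deposited values are raw counts: featureCounts 1.5.3 gave each gene symbol of GENCODE release 40 its uniquely aligned fragments, without strand, and left fragments on more than 1 gene unassigned. A second deposited count table covers introns (minimum overlap 25 bases) and served as an alternative denominator. The deposited circular RNA counts were not used, and spike-in counts were not analysed here. All 37 mitochondrial genes had 0 counts. The RMRP sequence came from the same assembly, with GENCODE release 44 for a check of spans, and the sequences of the 7SL entries are not reported here.

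The depth was 8627294 to 15376554 exon counts per library. Shares of exon counts carry Wilson 95% intervals, which cover counting error only. For the fractions, the sign of each of the 12 lysates' log2 ratios was flipped in every combination (an exact two-sided permutation test). Treatments were compared with exact two-sided permutation tests, labels permuted within the levels of the other compound. RN7SK and RPPH1 had 0 counts, so 2 RNAs and 12 comparisons were adjusted over in place of the 4 and 24 planned. Entries averaging 1 CPM or more entered edgeR's quasi-likelihood test (TMM, 8 groups in 1 fit, Benjamini-Hochberg over all genes tested, threshold 0.05), and again with the 7SL entries summed. The script was tested on simulated data.

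The fractions were paired by the replicate number in the sample titles. The labels do not state that a number marks 1 lysate, while the study compared the fractions as pairs. Deviations from group means correlated between fractions of a lysate with r = -0.285 to 0.107 (median -0.0222), and over 0.1 in 1 of 12 pairs. Between libraries of the same number in other treatments, r was -0.296 to 0.665 (median -0.0130, over 0.1 in 16 of 72 pairs). Between libraries of other numbers, it was -0.708 to 0.591 (median 0.00670, over 0.1 in 37 of 168 pairs). Replicates of a group differed beyond sampling noise (chi-square per degree of freedom 2.39 to 142, the highest between NaAsO2 insoluble replicates 1 and 3). The members and the gene lists were chosen with earlier results of these data known. Named genes were the members, 2 to 4 list genes by mean CPM or role, and the 3 genes most like each RNA by Pearson r of log2(CPM + 1). Alternatives were RLE factors, library size alone, no low-count filter, glmLRT (the test of the study's Methods), DESeq2, other denominators, the compared groups alone, replicate blocks, a fold limit, and each library left out in turn. The 7SL to RMRP ratio was added after seeing the data. Python 3.11.15 (numpy 2.4.6, pandas 2.3.3, scipy 1.17.1, matplotlib 3.10.9) and R 4.3.3 (edgeR 4.0.16, DESeq2 1.42.0) were used.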

Additional observations from a re-analysis of the deposited data

Results flagged for a closer look

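A pair of results differed between treatments by a test of the difference itself, the interaction of treatment and fraction in edgeR's quasi-likelihood test over all genes. The fraction effect of RMRP (insoluble versus soluble, log2) was lower after NaAsO2 than in Ctrl, with a difference of -1.62 (SE 0.22, adjusted p = 1.95e-05), and the value without NaAsO2 insoluble replicate 3 was -1.49 (adjusted p = 4.84e-06). It was also lower in Combo than in Ctrl, with a difference of -0.998 (SE 0.22, adjusted p = 0.00441). In all 3 Ctrl lysates RMRP had the higher share of exon counts in the insoluble fraction, and in all 3 NaAsO2 and all 3 Combo lysates the lower. With 7SL left out of the exon counts, Ctrl replicate 3 went the other way (0.372% soluble, 0.357% insoluble). Both calls held under 33 of 33 alternatives at the same adjusted p, with adjusted p of 2.03e-11 to 0.00074 and 0.00011 to 0.02, and the Combo difference, being just under 1 on the log2 scale, misses a fold limit of 1. Groups of 3 libraries are too small for a test of single outlying libraries. The cause of either difference was not tested.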

How the results depend on the processing

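Of 591 values computed under alternatives that leave no library out, 530 kept their direction and their side of the threshold, as did 1726 of 1824 under alternatives that leave 1 library out. The lower 7SL sum in the insoluble fraction was called under all alternatives in Ctrl, RK-33 and Combo (edgeR adjusted p at most 0.00183). With the replicate number or the lysate as a replicate block, no call of the 7SL sum or of RMRP changed: the insoluble NaAsO2 versus Ctrl value of 7SL was 1.44 (adjusted p = 0.0461), and the lysate block turned its fraction effect, NaAsO2 minus Ctrl, to -0.0151 (not called).

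With the compared groups alone, the 7SL fraction effect in NaAsO2 was -2.13 and insoluble NaAsO2 versus Ctrl 1.89, both no longer called, while soluble NaAsO2 versus Ctrl (0.633) and Combo versus NaAsO2 (-0.465) came to be called, and called members numbered 1 in the NaAsO2 fraction contrast, 1 in insoluble NaAsO2 versus Ctrl and 0 in insoluble Combo versus NaAsO2. Without the low-count filter, 7SL came to be called in soluble NaAsO2 versus Ctrl (0.697), soluble RK-33 versus Ctrl (0.554), insoluble Combo versus NaAsO2 (-1.70) and in the fraction effects NaAsO2 minus Ctrl (1.24) and Combo minus NaAsO2 (-1.19), the causes of which were not tested. Insoluble Combo versus NaAsO2 was also called for 7SL by glmLRT (-1.71) and DESeq2 (-1.72), with 5 members called without the filter, 5 by glmLRT, 4 by DESeq2 and 1 under the fold limit. The 7SL fraction effect of Combo minus Ctrl, at -0.02, was 0.000383 with RLE factors, 0.0119 with library size alone, 0.0499 without the filter, 0.000374 by DESeq2 and 0.00954 with the compared groups alone. RMRP values near 0 changed sign: soluble Combo versus NaAsO2 to 0.0302 (library size alone), insoluble RK-33 versus Ctrl to -0.00388 (no filter) and -0.00314 (compared groups alone), and the RK-33 effect on its ratio of fractions to -0.0277 (exon plus intron counts) and -0.0242 (TMM-scaled). The soluble NaAsO2 effect on 7SL was -0.214 per RMRP count.

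Leaving out 1 library gave, for the exact tests on 7SL, -0.150 to 0.0686 (soluble, RK-33), -0.106 to 0.835 (insoluble, NaAsO2), -0.798 to 0.143 (insoluble, RK-33), -0.231 to 0.673 (ratio, NaAsO2) and -0.745 to 0.159 (ratio, RK-33). For RMRP these were 0.292 to 0.389 and 0.256 to 0.353 (soluble, NaAsO2 and RK-33), -0.734 to -0.546 (insoluble, NaAsO2), -1.08 to -0.889 and -0.0657 to 0.122 (ratio, NaAsO2 and RK-33). The exact tests of the RMRP soluble share came to an adjusted p of 0.03 without RK-33 soluble replicate 3 (NaAsO2 effect) or NaAsO2 soluble replicate 2 (RK-33 effect), and the insoluble NaAsO2 effect to 0.03 without NaAsO2 soluble replicate 2, RK-33 soluble replicate 3, Combo soluble replicate 2 or Combo insoluble replicate 2, as did the NaAsO2 effect on the ratio (0.03 to 0.04) without any 1 of these 4. Leaving out a soluble library changes neither the insoluble shares nor their exact p, only the adjustment over all comparisons. In edgeR the 7SL sum ranged over -0.556 to 0.0742 and -0.101 to 0.609 (Combo versus RK-33, soluble and insoluble), -0.253 to 2.38 (insoluble NaAsO2 versus Ctrl), -2.21 to 0.426 (insoluble Combo versus NaAsO2), and -0.929 to 1.70, -0.480 to 0.235 and -1.69 to 0.912 (fraction effects NaAsO2 minus Ctrl, Combo minus Ctrl and Combo minus NaAsO2). Insoluble NaAsO2 versus Ctrl gave -0.256 to 2.41 for RN7SL1, -0.126 to 2.64 for RN7SL3 and -0.336 to 1.85 for RN7SL4P, with 1 to 5 members called, and insoluble Combo versus NaAsO2 gave -2.22 to 0.422, -2.19 to 0.583 and -1.85 to 0.173 for RN7SL1, RN7SL3 and RN7SL5P, with 0 to 5. RMRP gave -0.139 to 0.00660 (soluble Combo versus NaAsO2), -0.0569 to 0.235 (soluble Combo versus RK-33) and -0.0653 to 0.0517 (insoluble RK-33 versus Ctrl). Depth limits RN7SL4P and RN7SL5P, which had as few as 25 and 16 counts in a library.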
